A study of Mus musculus with 12 samples.

Results

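Imprinted growth genes of the mouse heart, 10 of the 53801 genes in the tables, were followed from sham surgery to 1 and 7 days after acute myocardial infarction (AMI). The genes were taken by their symbols, and all 10 were found: H19, Meg3, Rian, Mirg, Dlk1, Peg3, Plagl1, Cdkn1c, Grb10 and Mest. RNA was sequenced from 12 whole hearts of adult male C57BL/6N mice, 4 after a sham operation (sham), 4 at day 1 and 4 at day 7 after permanent ligation of the left anterior descending coronary artery. No transgene or knockout enters these 3 groups, and the day on which sham hearts were taken is not given beside the sham label. Each sample is labelled as a separate replicate heart, so p-values measure the spread between these hearts.

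Imprinted genes are read from only 1 parental allele, which is set by DNA methylation laid down in the egg or the sperm. Many of them tune fetal growth, are turned down after birth, and are turned up again in some injured or regenerating tissues. H19, Meg3, Rian and Mirg are maternally expressed noncoding RNAs, Cdkn1c and Grb10 are maternally expressed growth inhibitors, and Dlk1, Peg3, Plagl1 and Mest are paternally expressed. The strain is inbred, so the parental alleles could not be told apart and every value is the sum of both.

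Several of these genes are hosts of microRNAs. In the RefSeq microRNA table for GRCm38.p6, 21 microRNA genes with 39 mature sequences lie on the same strand within 5 of the 10 genes, of 1679 mature sequences in the table. Mirg holds 14 of the microRNA genes, Rian 3, Meg3 2, and H19 and Mest 1 each. The following sequences are shown because each lies within a host gene whose level is reported next. They run from 5′ to 3′, with the seed (bases 2 to 8, which pair with target RNAs) in capitals.
miR-675-5p: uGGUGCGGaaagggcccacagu
miR-675-3p: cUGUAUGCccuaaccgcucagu
miR-770-5p: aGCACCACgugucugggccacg
miR-370-3p: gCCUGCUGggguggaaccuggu
miR-453: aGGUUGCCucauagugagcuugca
miR-496a-5p: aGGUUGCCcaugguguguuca
miR-134-5p: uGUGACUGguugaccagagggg
miR-410-3p: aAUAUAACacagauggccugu
miR-335-5p: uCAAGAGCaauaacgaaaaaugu
The first pair lies in H19, miR-770-5p in Meg3, miR-370-3p in Rian, the next 4 in Mirg and miR-335-5p in Mest. Among the 39 sequences, miR-453 and miR-496a-5p, both inside Mirg, were the only pair with the same seed, and no other mature sequence of the table carries it. The deposited counts of the microRNA genes inside these hosts were 0 in all 12 libraries, so only the host transcripts were measured and the mature microRNAs were not analysed here.

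The libraries held 23204551 to 32166517 counts each. Levels are counts-per-million after TMM normalization (CPM), which scales libraries so that most genes keep their level. Differential expression was tested with edgeR's quasi-likelihood test over 15306 genes, with Benjamini-Hochberg adjusted p-values, and a differentially expressed gene (DEG) is one that changed at least 2-fold (FC, fold change) with an adjusted p below 0.05. Tissue identity was checked on marker lists. The summed level of 10 cardiomyocyte genes ran from 85609 to 96441 CPM in sham, 47369 to 65048 at day 1 and 37166 to 46296 at day 7. The summed level of 8 fibroblast genes ran from 1818 to 2320, 2194 to 3142 and 7172 to 14635 CPM in the same order. In whole hearts, fewer cells of a type and less RNA per cell cannot be told apart. On library sizes alone, without TMM, the median log2 FC of all genes moved from -0.01 to 0.26 at day 1 against sham and from 0.03 to 0.42 at day 7 against sham, and the share of DEGs that were higher moved from 72.3% to 89% and from 72.3% to 92%. For day 7 against day 1 the share moved from 76.1% to 84.7%.

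At day 7 against sham, 8 of the 9 genes that could be tested rose and Cdkn1c fell at an adjusted p below 0.05, Cdkn1c not on library sizes alone or in TPM. Mest, Meg3, Rian and Mirg passed as DEGs, with FCs of 17.5, 6.02, 5.28 and 5.75. H19, Peg3, Plagl1 and Grb10 rose by less than 2-fold. On library sizes alone 7 of the 9 passed as DEGs, where 3633 of the 15306 genes were higher DEGs and 318 lower. Dlk1, which encodes a Notch-like membrane protein of progenitor cells, had 1 to 13 counts in each library and did not pass the filter on low counts. With TMM, 15.3% of all 15306 genes were higher DEGs and 5.88% lower DEGs in this comparison. At the adjusted p alone, 30.9% were higher and 28.4% lower. The median log2 FC of the 9 tested genes was 0.95, against 0.03 for all genes. The genes were chosen with earlier results of these data known, and Meg3, Rian and Mirg are neighbours. Medians of the 9 genes, here and below, therefore only describe them.

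At day 1 against sham, only Mest passed as a DEG, with a background of 7.79% higher and 2.98% lower. At the adjusted p alone, Mest, Rian and Grb10 rose and Cdkn1c fell, and the other 5 did not pass. That is 3 higher and 1 lower of 9, beside 22% higher and 19.9% lower of all genes. The median log2 FC was 0.34, against -0.01 for all genes. From day 1 to day 7, Mest, Meg3, Rian and Mirg were higher DEGs beside a background of 8.55% higher and 2.69% lower, and Grb10 also rose at the adjusted p alone, where 24.2% of all genes were higher and 22.8% lower. The median was 0.61, against 0.02 for all genes. Because the comparisons with sham share the 4 sham hearts, and the last shares its hearts with both, the 3 sets of changes are not independent.

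**Figure D1:**
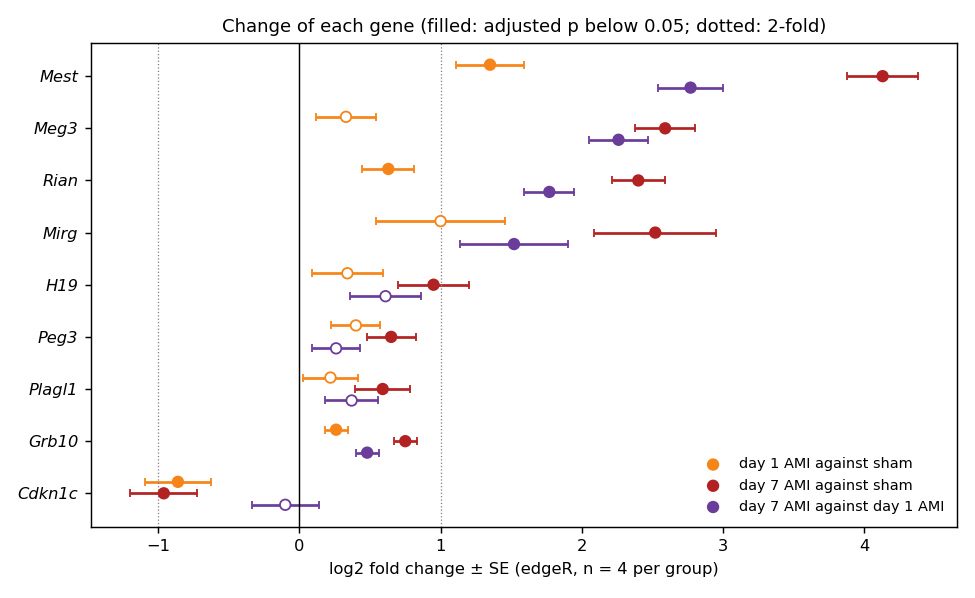
Log2 FC of the 9 tested genes with its SE, from edgeR on 4 hearts per group, for day 1 against sham (orange), day 7 against sham (red) and day 7 against day 1 (purple). Filled points have an adjusted p below 0.05 and dotted lines mark a 2-fold change. Mest, Meg3, Rian and Mirg lie to the right of the 2-fold line at day 7, and Cdkn1c lies to the left of 0 against sham at both days.

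The hearts were also compared without a model, by whether every heart of one group lay above or below every heart of the other. At day 1 against sham this held for 3 of the 9 genes, Mest, Rian and Grb10, beside 36.7% of all genes. At day 7 against sham it held for 7 of 9, all but H19 and Plagl1, beside 53% of all genes. From day 1 to day 7 it held for Mest, Meg3, Rian, Mirg and Grb10, beside 44.5% of all genes. An exact two-sided permutation test of 4 hearts against 4 gave p = 0.0286 in each of these cases, the smallest it can give. By parental allele, 5 of the 6 maternally expressed genes rose and 1 fell at day 7 against sham at the adjusted p, and the 3 tested paternally expressed genes rose. Of all genes, 30.9% were higher and 28.4% lower at that adjusted p. Among the 5, Meg3, Rian and Mirg are neighbours in 1 imprinted domain on chromosome 12.

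**Figure D2:**
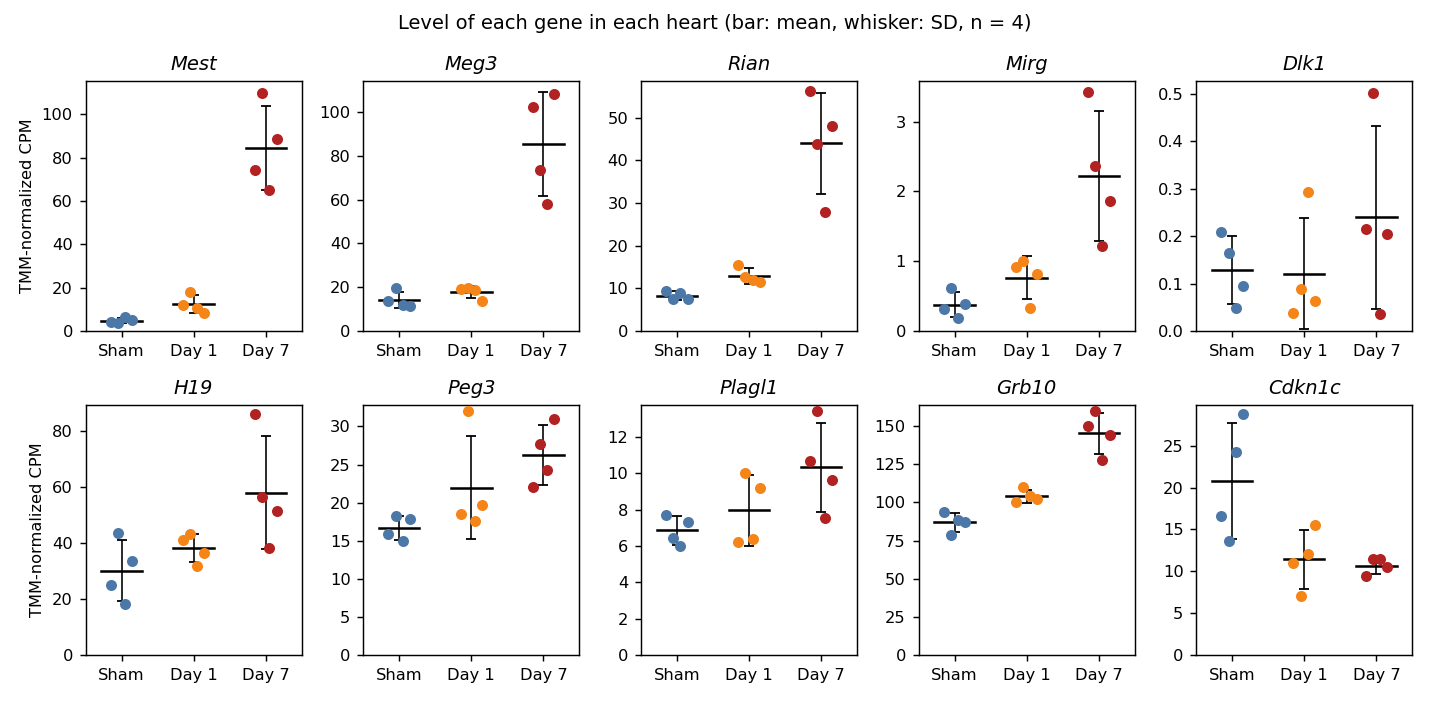
TMM-normalized CPM of each of the 10 genes in each of the 12 hearts, on a separate linear axis per gene that starts at 0, for sham (blue), day 1 (orange) and day 7 (red). Horizontal bars are means and whiskers are SDs of 4 hearts. The day 7 hearts stand clear of the other groups for Mest, Meg3, Rian, Mirg and Grb10, overlap with them for H19, and lie below sham for Cdkn1c.

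Mest, also called Peg1, encodes a hydrolase-like protein of the endoplasmic reticulum and is a mark of mesodermal and growing tissue. In sham hearts 1 to 4 it was at 4.12, 3.74, 6.35 and 5.16 CPM. At day 1 it was at 12.2, 18.1, 10.7 and 8.36 CPM, and at day 7 at 74.5, 110, 65.2 and 88.4 CPM. The 3 groups followed each other without overlap. The log2 FC was 1.35 (SE 0.243, edgeR adjusted p = 0.000664) at day 1 and 4.13 (SE 0.251, adjusted p = 2.93e-08) at day 7 against sham. Between day 1 and day 7 it was 2.77 (SE 0.228, adjusted p = 7.63e-07). Mest lies on chromosome 6 at 30723547 to 30748465 (GRCm38, plus strand). The 3′ end of Copg2, which encodes a coat protein subunit of Golgi vesicles, covers 912 bases or 23.1% of the Mest exon bases on the opposite strand, and the strand that was counted is not given in the sources used here. Copg2 was at 44.1 ± 6.91 CPM in sham and 46.6 ± 4.76 CPM at day 7 (SD, n = 4), a log2 FC of 0.08 (adjusted p = 0.599), which was 0.48 on library sizes alone (adjusted p = 0.00359) and 0.52 on log2(TPM + 1) (adjusted p = 0.00306), or 0.06 and 0.08 relative to the median of all genes.

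Meg3, Rian and Mirg form a row of maternally expressed noncoding RNAs on the plus strand of chromosome 12, in the imprinted domain between Dlk1 and Dio3. Meg3 is the most studied of them, a nuclear RNA with growth-restraining roles in several cell types. It was at 13.8, 19.6, 12 and 11.3 CPM in sham, 19.2, 19.5, 19 and 13.8 CPM at day 1, and 102, 73.6, 58 and 108 CPM at day 7. Day 1 overlapped with sham, while every day 7 heart was above both other groups. At day 1 its log2 FC was 0.33 (SE 0.211, adjusted p = 0.224), and 0.53 (adjusted p = 0.0499) without sham replicate 2, the highest sham heart. At day 7 it was 2.59 against sham (SE 0.215, adjusted p = 3.31e-07) and 2.26 against day 1 (SE 0.21, adjusted p = 2.19e-06). Meg3 spans 109541001 to 109571726, Rian 109603940 to 109661716 and Mirg 109729764 to 109749460 on GRCm38.

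Rian, whose introns and exons hold a snoRNA cluster, was at 9.44, 7.43, 8.92 and 7.55 CPM in sham. It was at 15.6, 12.7, 12 and 11.4 CPM at day 1 and at 56.1, 43.7, 27.8 and 48.1 CPM at day 7. The day 1 hearts did not overlap with sham. Rian rose by a log2 FC of 0.63 (SE 0.185, adjusted p = 0.0141) at day 1 and by 2.40 (SE 0.186, adjusted p = 1.87e-07) at day 7, and by 1.77 between the days (SE 0.178, adjusted p = 4.37e-06). Whether Meg3 and Rian differed in their day 1 change was tested heart by heart on the difference of their log2 CPM, chosen after the values were seen as 1 of 15 such tests. That difference changed by -0.27 between sham and day 1 (exact permutation p = 0.343, adjusted p = 0.536). Between day 1 and day 7 it changed by 0.50, without overlap (exact permutation p = 0.0286, adjusted p = 0.0857). The difference of Mest and Meg3 changed by 0.95 at day 1 and 1.53 at day 7 against sham, each without overlap and with that same exact permutation p and adjusted p. That p is the smallest this test can give. The adjusted p was therefore set by how many of the 15 tests reached it, and does not weigh the size of a difference.

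Mirg, the host of the largest group of microRNA genes above, was scarce. It had 6, 15, 4 and 8 counts in sham, 24, 34, 10 and 26 at day 1, and 111, 61, 33 and 55 at day 7. Its level was 0.376 ± 0.178 CPM in sham, 0.77 ± 0.306 CPM at day 1 and 2.22 ± 0.929 CPM at day 7 (SD, n = 4). The day 7 hearts were above all others, and day 1 overlapped with sham. Mirg had a log2 FC of 1.00 (SE 0.456, adjusted p = 0.0925) at day 1, 2.52 (SE 0.432, adjusted p = 0.000172) at day 7 against sham, and 1.52 (SE 0.382, adjusted p = 0.00484) between the days. The day 1 value turned on single libraries, with a log2 FC of 1.36 (adjusted p = 0.0471) without sham replicate 2 and 1.25 (adjusted p = 0.033) without day 1 replicate 3.

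The domain also holds paternally expressed protein-coding genes and a noncoding RNA beside Dio3. Between the start of Dlk1 and the end of Dio3, 828275 bases, the annotation lists 118 genes, of which 12 had a count in any library, and all 67 microRNA and 23 snoRNA genes were at 0. Rtl1, a retrotransposon-derived gene on the minus strand between Meg3 and Rian, was at 0.279 ± 0.0964 CPM in sham and 0.874 ± 0.0982 CPM at day 7 (SD, n = 4), a log2 FC of 1.62 (adjusted p = 0.00131). It had only 3 to 9 counts in the sham hearts. Several microRNA genes of the plus strand lie within its span, and the strand that was counted is not given. The part of plus-strand RNA in its counts was not tested. Dio3, the deiodinase that inactivates thyroid hormone, had 0 to 2 counts in the sham hearts, 7 to 29 at day 1 and 20 to 40 at day 7, and rose at both days against sham (adjusted p = 0.00135 and 3.95e-05). Its sham counts are under the floor of 3 counts per library, so no fold is given. The noncoding RNA on the opposite strand next to Dio3, Dio3os, is listed as AL591207.1 and was matched by its gene identifier after its values were seen. It had 2 to 9 counts in sham, 0 to 6 at day 1 and 26 to 53 at day 7, and rose at day 7 against sham (adjusted p = 0.000861) but did not pass at day 1 (adjusted p = 0.153). Begain, on the same chromosome outside this stretch, was at 0.308 ± 0.227, 1.13 ± 0.123 and 1.74 ± 0.124 CPM in the 3 groups, with log2 FCs of 1.87 and 2.49 against sham (adjusted p = 0.00113 and 3.67e-05). With 2 to 13 counts in the sham hearts, the size of these changes is uncertain. Dlk1 itself, at 109452823 to 109463336 on the plus strand, had 4, 4, 1 and 2 counts in sham, 1, 3, 9 and 2 at day 1, and 7, 13, 1 and 6 at day 7, and a change was not detectable at this depth.

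The sequence before the start of the genes with the largest changes is shown for its short motifs, from the RefSeq promoter table of GRCm38.p6. Capitals mark TGCCGC or its reverse complement, the core that the imprint-keeping zinc finger protein ZFP57 is known to bind when methylated. Mest, chr6:30737800-30738049, plus strand:
Mest: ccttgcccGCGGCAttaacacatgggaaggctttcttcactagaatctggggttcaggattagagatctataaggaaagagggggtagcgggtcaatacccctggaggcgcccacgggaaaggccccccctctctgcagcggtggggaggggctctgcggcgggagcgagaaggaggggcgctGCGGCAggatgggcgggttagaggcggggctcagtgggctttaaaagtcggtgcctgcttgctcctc
Meg3, chr12:109540746-109540995, plus strand:
Meg3: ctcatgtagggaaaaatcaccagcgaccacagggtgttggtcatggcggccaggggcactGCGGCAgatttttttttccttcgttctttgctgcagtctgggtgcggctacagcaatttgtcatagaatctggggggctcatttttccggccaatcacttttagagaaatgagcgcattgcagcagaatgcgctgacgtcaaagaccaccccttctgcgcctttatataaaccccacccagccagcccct
In windows of 300 bases, which add the first bases after the start, this Mest promoter held 2 matches and the Meg3 promoter 1, counting both strands. The windows of a second, upstream Mest start and a second Meg3 start in the table held 0. Plagl1 and Grb10 each held 1 in 1 window, and Dlk1, Rian, Mirg and Peg3 held 0. Of 32851 promoter windows, 11.6% held a match and 1.53% held 2 or more. GCCATNTT, a YY1-like motif, was in neither and in 6.05% of all windows. A match is only a run of letters and says nothing about binding in these hearts. Zfp57 was at 1.37 ± 0.453 CPM in sham, 2.7 ± 0.968 CPM at day 1 and 7.55 ± 1.08 CPM at day 7 (SD, n = 4), with a log2 FC of 2.47 (adjusted p = 3.84e-06) at day 7 against sham.

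H19 is an abundant fetal noncoding RNA that is spliced, capped and cut to give miR-675, and it shares enhancers with its paternally expressed neighbour Igf2. It was at 24.9, 43.4, 18.2 and 33.6 CPM in sham, 41, 43.1, 31.8 and 36.3 CPM at day 1, and 85.9, 56.4, 38.1 and 51.3 CPM at day 7. The day 7 hearts reached higher, but replicate 3 of day 7 lay below the highest sham heart, replicate 2. Its log2 FC was 0.34 (SE 0.252, adjusted p = 0.303) at day 1 and 0.95 (SE 0.253, adjusted p = 0.00501) at day 7 against sham, and the exact two-sided permutation test gave p = 0.0571 at day 7. Single libraries set which side of the 2-fold line it fell on, with log2 FCs at day 7 of 1.18 without sham replicate 2, 1.10 without day 7 replicate 3 and 1.00 without day 7 replicate 4, against 0.69 (adjusted p = 0.0205) without day 7 replicate 1. From day 1 to day 7 it was 0.61 (adjusted p = 0.0581), and passed the adjusted p without sham replicate 2 (0.0366), sham replicate 3 (0.0353) or day 7 replicate 3 (a log2 FC of 0.76, adjusted p = 0.0215). Between H19 and Meg3, the difference of log2 CPM changed by -1.62 at day 7 against sham without overlap (exact permutation p = 0.0286, adjusted p = 0.0857 over the 15 tests). That p is again the smallest possible, so this adjusted p does not weigh the size of the difference. Sham replicate 2 also had the highest sum of 5 erythroid genes, 4450 CPM against 491 to 1178 in the other sham hearts, and the part of blood RNA in its H19 level was not tested. H19 lies on chromosome 7 at 142575529 to 142578143 (minus strand).

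Igf2, the fetal insulin-like growth factor, is the neighbour of H19 on chromosome 7. It was at 32, 33.6, 33.2 and 46.8 CPM in sham, 31.5, 24.7, 25.1 and 24.4 CPM at day 1, and 20.9, 26.3, 23.9 and 31 CPM at day 7. Its log2 FC was -0.46 (adjusted p = 0.0184) at day 1 and -0.51 (adjusted p = 0.00662) at day 7, with every AMI heart below every sham heart. On library sizes alone the values were -0.19 and -0.11 (adjusted p = 0.312 and 0.529), and with limma on log2(TPM + 1) they were above 0, at 0.03 and 0.05 (adjusted p = 0.857 and 0.754), so the direction of Igf2 depended on the scaling. TPM are the authors' transcripts-per-million, which are also scaled by transcript length. Relative to the median of all genes, the log2 FC of Igf2 at day 7 was -0.54 on both TMM and library sizes. On log2(TPM + 1) it was -0.39 relative to that median. For H19 at day 7, library sizes alone gave a log2 FC of 1.34 and log2(TPM + 1) one of 1.56, or 0.91 and 1.12 relative to the median of all genes.

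Peg3, a zinc finger protein expressed from the paternal allele that takes part in p53 and TNF signalling, was at 15.9, 18.2, 14.9 and 17.8 CPM in sham. It was at 18.5, 32, 17.6 and 19.7 CPM at day 1 and at 22, 27.7, 24.3 and 31 CPM at day 7. Day 7 did not overlap with sham, and day 1 replicate 2 was above every day 7 heart. Peg3 had a log2 FC of 0.40 (SE 0.174, adjusted p = 0.0816) at day 1 and 0.65 (SE 0.174, adjusted p = 0.005) at day 7 against sham. Without day 1 replicate 3 the day 1 value passed (0.49, adjusted p = 0.0456). Without day 1 replicate 2, the value at day 1 against sham was 0.16 (adjusted p = 0.347) and day 7 against day 1 was 0.49 (adjusted p = 0.00471), in place of 0.26 (adjusted p = 0.235) with it. Peg3 lies on chromosome 7 at 6703892 to 6730431 (minus strand).

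Plagl1, also called Zac1, is a zinc finger transcription factor that regulates other imprinted genes, among them genes of the present set. It was at 7.72, 6.45, 5.97 and 7.32 CPM in sham, 6.23, 10, 6.38 and 9.21 CPM at day 1, and 10.7, 13.4, 7.56 and 9.63 CPM at day 7. Only the lowest day 7 heart, replicate 3, fell within the sham range. Plagl1 had a log2 FC of 0.22 (adjusted p = 0.389) at day 1 and 0.59 (SE 0.193, adjusted p = 0.0168) at day 7. The day 7 call was lost without sham replicate 3 (0.52, adjusted p = 0.0503) and without day 7 replicate 2 (0.44, adjusted p = 0.0663). From day 1 to day 7 it was 0.37 (adjusted p = 0.121), and 0.49 (adjusted p = 0.0453) without day 7 replicate 3. Plagl1 lies on chromosome 10 at 13060504 to 13131694 (plus strand).

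Grb10 encodes an adaptor that binds the insulin and IGF1 receptors and restrains their signalling. It was at 93.7, 78.4, 88.3 and 87.3 CPM in sham, 100, 110, 104 and 102 CPM at day 1, and 150, 160, 128 and 144 CPM at day 7. The 3 groups did not overlap. Grb10 rose by a log2 FC of 0.26 (SE 0.0818, adjusted p = 0.0195) at day 1, 0.75 (SE 0.0821, adjusted p = 3.57e-06) at day 7 against sham and 0.48 (SE 0.0816, adjusted p = 0.000288) between the days. The day 1 call was lost without sham replicate 2 (0.22, adjusted p = 0.057) and without day 1 replicate 2 (0.24, adjusted p = 0.0567). Grb10 lies on chromosome 11 at 11930508 to 12038683 (minus strand). Its non-imprinted relative Grb14 fell on the CPM scale, at 199 ± 21.9, 140 ± 32.3 and 112 ± 11.2 CPM in the 3 groups (SD, n = 4), with log2 FCs of -0.51 and -0.83 against sham (adjusted p = 0.0131 and 0.000266). On library sizes alone, Grb14 was at -0.23 and -0.42 (adjusted p = 0.186 and 0.0164), so only its day 7 fall passed. On log2(TPM + 1), Grb14 did not pass at either day (-0.21 and -0.27, adjusted p = 0.241 and 0.103), or -0.44 and -0.71 relative to the median of all genes.

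Cdkn1c, which encodes the cyclin-dependent kinase inhibitor p57, was the 1 tested gene that fell. It was at 16.6, 13.6, 24.2 and 28.8 CPM in sham, 11, 7.01, 12.1 and 15.5 CPM at day 1, and 9.37, 11.4, 11.4 and 10.5 CPM at day 7. The sham hearts were spread widely, and the day 7 hearts, all below them, ranged from 9.37 to 11.4 CPM. Day 1 overlapped with sham. Cdkn1c had a log2 FC of -0.86 (SE 0.236, adjusted p = 0.00961, exact permutation p = 0.0571) at day 1 and -0.96 (SE 0.238, adjusted p = 0.00292) at day 7. Cdkn1c lies on chromosome 7 at 143458339 to 143461050 (minus strand). The call depended on the scaling. On library sizes alone the values were -0.59 and -0.56 (adjusted p = 0.0546 and 0.0511), and on log2(TPM + 1) they were -0.67 and -0.42 (adjusted p = 0.0178 and 0.0871), although relative to the median of all genes they were -0.85 and -0.99 on library sizes. At day 1 it passed as a lower DEG without sham replicate 2 (-1.02, adjusted p = 0.00291) or day 1 replicate 4 (-1.05, adjusted p = 0.0038), and at day 7 without sham replicate 1 (-1.06, adjusted p = 0.00313) or sham replicate 2 (-1.13, adjusted p = 0.000765). Of its non-imprinted relatives, Cdkn1b (p27) had log2 FCs of -0.33 and -0.15 (adjusted p = 0.00965 and 0.164) and Cdkn1a (p21) of 1.05 and 0.36 (adjusted p = 0.0857 and 0.526) at day 1 and day 7. Both depended on the scaling. Cdkn1b was at -0.06 and 0.25 on library sizes alone (adjusted p = 0.67 and 0.041) and at 0.00 and 0.29 on log2(TPM + 1) (adjusted p = 0.996 and 0.0245). The sign of its day 7 value thus turned. Relative to the median of all genes it did not turn, at -0.18 with TMM, -0.18 on library sizes and -0.14 on log2(TPM + 1). Cdkn1a was at 1.32 and 0.76 on library sizes alone (adjusted p = 0.033 and 0.171) and at 1.46 and 1.18 on log2(TPM + 1) (adjusted p = 0.0252 and 0.0438). Relative to that median, Cdkn1a was at 1.06 and 0.33 on library sizes and at 1.23 and 0.74 on log2(TPM + 1).

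Levels can be compared between genes only per length, which TPM allows. In sham hearts the order of mean TPM was Cdkn1c at 23.4, Grb10 at 20.3, H19 at 17, Meg3 at 14.2, Rian at 9.57, Mest at 2.55, Peg3 at 2.35, Plagl1 at 2.33, Mirg at 0.682 and Dlk1 at 0.065. Neighbours in this order overlapped between hearts from Cdkn1c to Rian and from Mest to Plagl1, and the steps from Rian to Mest, from Plagl1 to Mirg and from Mirg to Dlk1 did not. At day 7 the order was Meg3 at 144, Rian at 70, Mest at 59.7, H19 at 51.6, Grb10 at 49.4, Cdkn1c at 16.6, Peg3 at 5.22, Plagl1 at 5.14, Mirg at 4.09 and Dlk1 at 0.25. Meg3 was then above Rian in every heart, Rian, Mest, H19 and Grb10 overlapped in turn, and Grb10 was above Cdkn1c in every heart. The summed TPM of the 10 genes was 92.4 ± 10.8 in sham, 127 ± 10.4 at day 1 and 406 ± 86.6 at day 7 (SD, n = 4), and Meg3 made up 15.3%, 16.9% and 35.5% of it. TPM and CPM are scaled differently, and the mean ratio of TPM to CPM went from 0.987 in sham to 1.68 at day 7 for Meg3, from 0.566 to 0.897 for H19 and from 0.234 to 0.339 for Grb10. For these genes, levels in TPM therefore rose by more than the FCs on counts, and the rise of the summed TPM includes this shift in scale.

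**Figure D3:**
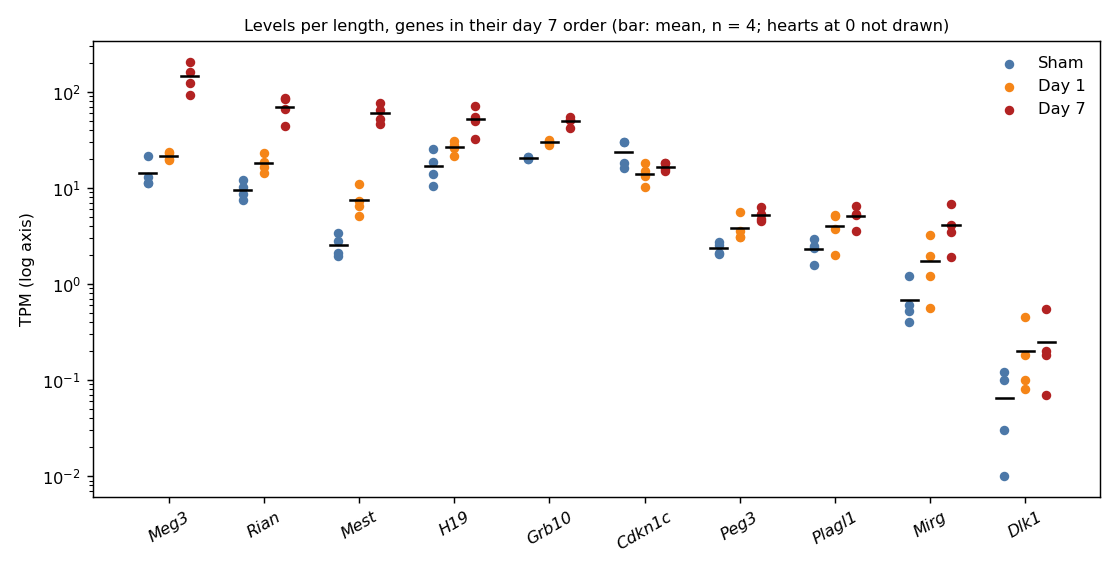
TPM of the 10 genes in each heart on a log axis, in their day 7 order, for sham (blue), day 1 (orange) and day 7 (red), with bars at the means of 4 hearts. Cdkn1c leads in sham with a mean of 23.4 TPM and Meg3 at day 7 with 144 TPM, and Dlk1 is lowest in each group.

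Whether the genes moved together was asked within groups, since the groups form separate clusters. The group mean was subtracted from each log2 CPM value, and Pearson's r was taken over the 12 hearts for the 36 pairs of the 9 tested genes, with an exact permutation of hearts within groups (13824 arrangements). Of the 36 pairs, 26 had r above 0 and 10 below, with a median of 0.23. Only H19 and Mirg passed after adjustment over the 36 pairs, with r = 0.89 and Spearman's rho = 0.89 (permutation p = 7.23e-05 for each, the smallest possible, adjusted p = 0.0026). Without the 2 hearts farthest from the median of H19, r was 0.86. H19 and Mirg lie on different chromosomes, and the pair did not pass when the same was done on log2(TPM + 1), where 0 pairs passed in place of 1. Mirg rests on 4 to 111 counts per library.

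Neighbours in the Dlk1-Dio3 domain did not pass that test. Meg3 and Rian had r = 0.56 (permutation p = 0.116, adjusted p = 0.53) and rho = 0.48 (permutation p = 0.167), with r = 0.66 without the 2 farthest hearts. Meg3 and Mirg had r = 0.47 (permutation p = 0.156, adjusted p = 0.53) and rho = 0.50 (permutation p = 0.156), with r = 0.15 without those 2. For Rian and Mirg, r was 0.40 (permutation p = 0.259, adjusted p = 0.583) and rho 0.24 (permutation p = 0.5), and r turned to -0.12 without the 2 hearts farthest from the median of Rian. Of the other pairs, 3 passed before adjustment and not after it. Meg3 and Cdkn1c had r = -0.69 (permutation p = 0.006, adjusted p = 0.108), rho = -0.73 (permutation p = 0.00391) and r = -0.68 without 2 hearts. Plagl1 and Grb10 had r = 0.72 (permutation p = 0.0137, adjusted p = 0.165), rho = 0.71 (permutation p = 0.0177) and r = 0.48 without 2 hearts. Grb10 and Mest had r = 0.58 (permutation p = 0.0492, adjusted p = 0.443), rho = 0.57 (permutation p = 0.0719) and r = 0.40 without 2 hearts. Single hearts shared extremes. Day 7 replicate 3 was the lowest day 7 heart for 7 of the 9 genes, and day 1 replicate 2 the highest day 1 heart for 7 of 9.

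**Figure D4:**
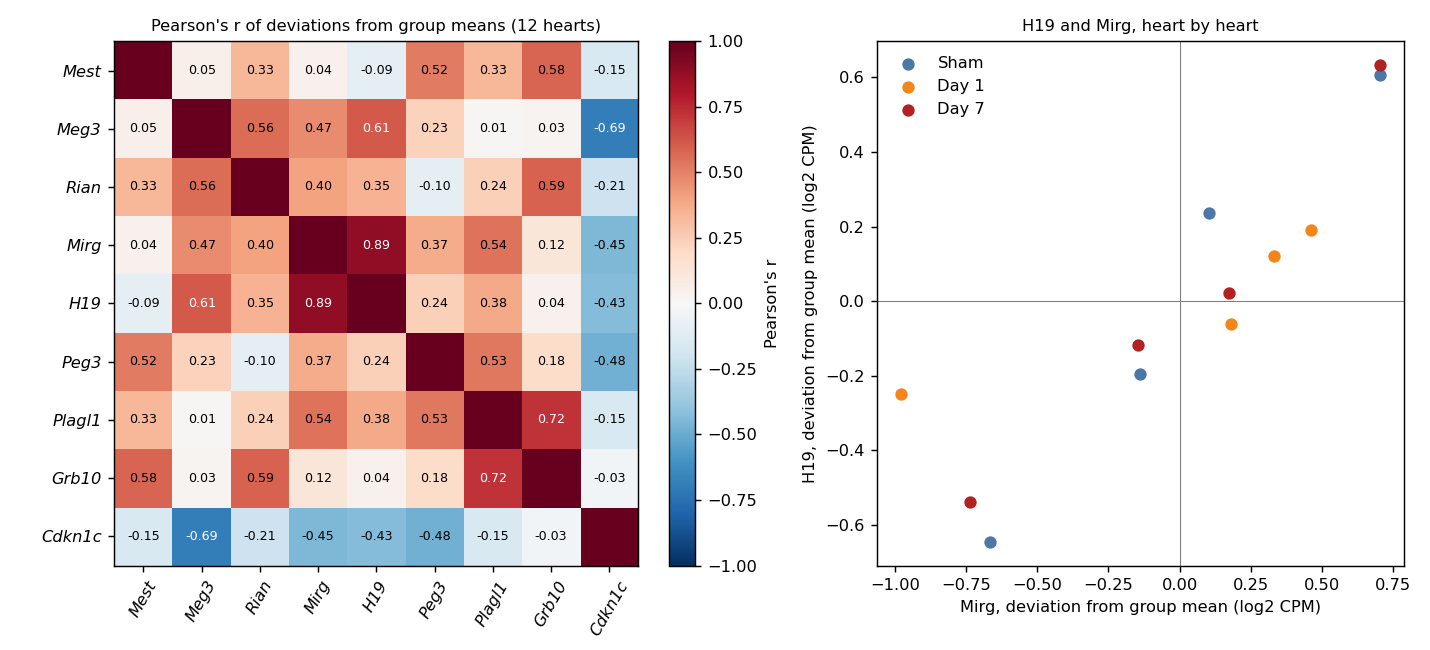
Left, Pearson's r of each pair of the 9 tested genes over 12 hearts after subtracting group means from log2 CPM, from blue (-1) to red (1). Right, these deviations of H19 against those of Mirg for sham (blue), day 1 (orange) and day 7 (red) hearts, the 1 pair that passed after adjustment with r = 0.89.

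The changes between the groups were side by side with those of cell type markers. Of 8 fibroblast genes, 5 rose as DEGs at day 7 against sham and 1, the actin-severing protein Gsn, fell. Of 8 myofibroblast genes, 7 rose, and their summed level ran from 180 to 305 CPM in sham, 495 to 941 at day 1 and 2868 to 7009 at day 7. Of 8 mitosis genes, all 8 rose, with sums of 4.88 to 19.8 CPM in sham, 23.1 to 27.8 at day 1 and 153 to 230 at day 7. All 8 leukocyte genes rose as DEGs at both days against sham and 0 from day 1 to day 7. Their sums ran from 78.6 to 138 CPM in sham, 292 to 425 at day 1 and 298 to 488 at day 7. Epicardial genes ran from 16.3 to 32.2 CPM in sham, 12.7 to 31.8 at day 1 and 38 to 54.9 at day 7. Endothelial genes ran from 1014 to 1178, 832 to 887 and 1270 to 1423 CPM in the same order, and mural genes from 710 to 857, 573 to 653 and 1005 to 1136 CPM. Of 10 skeletal muscle genes 2 could be tested, of which Tnnt3, a fast muscle troponin, rose as a DEG in each of the 3 comparisons (log2 FC 2.79 at day 7 against sham, adjusted p = 2.83e-05), and Myod1, Myf5 and Pax7 had 3 counts or fewer in every library. The summed skeletal muscle level was 7.34 CPM in day 7 replicate 2, the highest heart for Mest, and 0.914 to 2.41 CPM in the other 11 hearts. Day 7 replicate 3, the lowest for Mest, Meg3, Rian, Mirg and H19, was also lowest for the fibroblast sum (7172 CPM), and day 7 replicate 1, the highest for Rian, Mirg and H19, was highest for it (14635 CPM). These matches were not particular to fibroblast genes. Among the day 7 hearts, replicate 3 was also lowest for the myofibroblast, mitosis, leukocyte and epicardial sums and highest for the cardiomyocyte sum. It was not lowest for the endothelial or mural sums. Replicate 1 was also highest for the myofibroblast, mitosis and endothelial sums, but not for the leukocyte, epicardial or mural sums. In day 7 replicate 1 Mest was at 74.5 CPM, the second lowest of the day 7 hearts, and Meg3 at 102 CPM was below replicate 4 (108 CPM). The part of these cells in the levels of the imprinted genes was not tested.

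**Figure D5:**
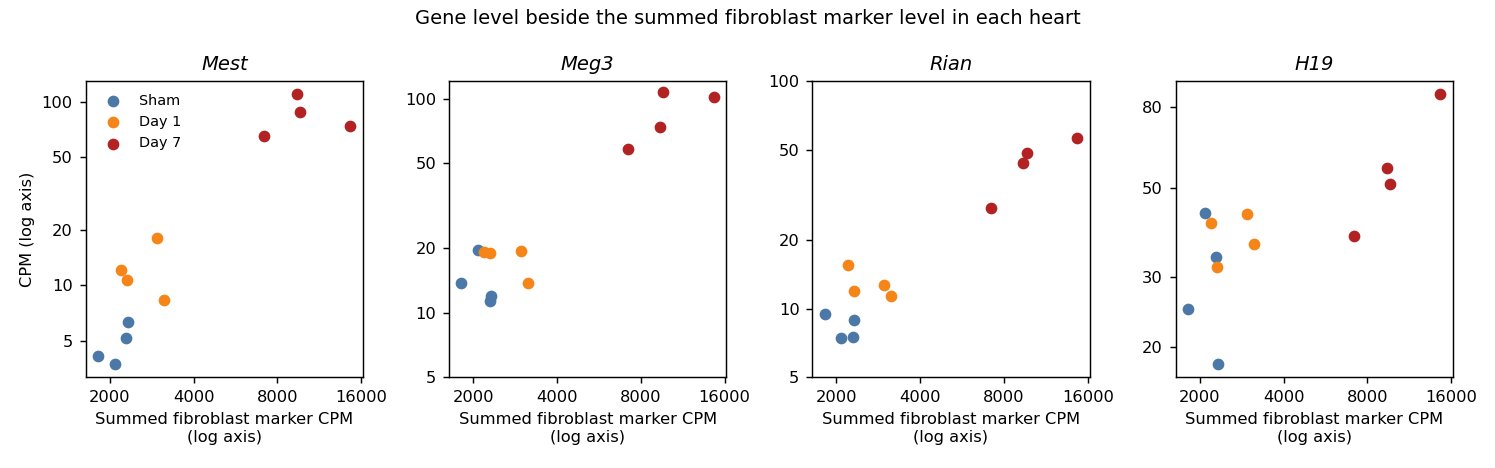
CPM of Mest, Meg3, Rian and H19 in each heart against the summed CPM of 8 fibroblast genes, both on log axes, for sham (blue), day 1 (orange) and day 7 (red). The day 7 hearts lie at 7172 CPM or above on the horizontal axis and the other hearts at 3142 or below. Sham and day 1 hearts overlap on the horizontal axis, while Mest is higher in each of the day 1 hearts than in any sham heart.

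The genes with the most similar course were listed for H19, Meg3 and Mest, by the root mean square difference of log2 CPM relative to each gene's own sham mean over the 12 hearts, among 13433 genes. For Mest they included Col8a1 (0.321), Col5a2, Slamf7 and Col1a2 (0.432), of which 3 encode collagens. For Meg3 they were Sertad4 (0.215), Thbs3, Cd72, C330027C09Rik and Lxn (0.283), with Rian at rank 12 (0.332) and Mirg at rank 185. For H19 they were Cmklr1 (0.26), Necap2, Fam46a, Enc1 and Slc20a1 (0.272), and the closest of the other 8 tested imprinted growth genes was Grb10 at rank 584 (0.41). Col1a2 is also among the fibroblast markers above.

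Beyond the 10 genes, 65 other genes known to be imprinted in the mouse were found by symbol, and 51 could be tested. Of these, 5 rose and 1 fell as DEGs at day 1, 8 rose and 2 fell at day 7 against sham, and 3 rose and 1 fell from day 1 to day 7. At day 7 against sham this is 15.7% higher and 3.92% lower of the 51, beside the 15.3% and 5.88% of all genes. The median log2 FC of the 51 was 0.01, against 0.95 for the 9 genes, which were chosen with earlier results of these data known. After Dio3 and Begain, the next by size at day 7 was Atp10a, a lipid flippase, at 2.68 ± 0.668, 6.52 ± 1.38 and 12 ± 1.89 CPM (SD, n = 4; log2 FC 2.15, adjusted p = 9.69e-07). At day 1 it was Slc22a3, an organic cation transporter, which fell from 10.1 ± 1.21 to 3.78 ± 2.14 CPM (log2 FC -1.41, adjusted p = 0.00332). From day 1 to day 7, Snrpn, a splicing protein gene of the Prader-Willi domain, fell from 106 ± 16.3 to 43.3 ± 2.82 CPM (log2 FC -1.30, adjusted p = 1.31e-06). In the same interval Rtl1 rose by a log2 FC of 1.13 (adjusted p = 0.0109), and the matrix proteoglycan Dcn rose from 318 ± 35.6 to 669 ± 79.3 CPM (log2 FC 1.07, adjusted p = 2.02e-05).

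Genes that set or keep imprints were also followed. Of 17 tested, 2 (11.8%) rose as DEGs at day 1 and 2 (11.8%) at day 7 against sham, beside 7.79% and 15.3% of all genes. At the adjusted p alone, 8 rose and 3 fell at day 7, beside 30.9% higher and 28.4% lower of all genes. Uhrf1, which brings the maintenance methyltransferase to replicated DNA, was at 1.5 ± 0.596, 10.7 ± 1.77 and 16.8 ± 3.45 CPM in the 3 groups (SD, n = 4; log2 FC 2.83 and 3.48 against sham, adjusted p = 8.16e-06 and 1.24e-07). Dnmt3l, a cofactor of new DNA methylation in germ cells, was at 0.217 ± 0.113, 0.973 ± 0.325 and 0.226 ± 0.0554 CPM, with a log2 FC of 2.11 at day 1 (adjusted p = 0.00091) and -2.08 from day 1 to day 7 (adjusted p = 0.000494). Its sham level was close to the floor of 3 counts given below for Dlk2, and it had few counts, so the size of these changes is uncertain. Of 9 tested relatives that are not imprinted, 1 (11.1%) was a higher DEG in each comparison, beside 7.79% of all genes at day 1 and 15.3% at day 7 against sham and 8.55% between the days. At day 1 it was Dlk2, a relative of Dlk1, at 0.165 ± 0.149 CPM in sham and 0.594 ± 0.196 CPM at day 1 (log2 FC 1.83, adjusted p = 0.024). The floor of 3 counts was 0.123 to 0.156 CPM in the sham libraries, so the size of this change is uncertain. In the other 2 it was Igf1, which rose from 12.1 ± 2.1 CPM in sham to 53.9 ± 5.96 CPM at day 7. Its log2 FC was 2.16 against sham (adjusted p = 5e-08) and 1.58 from day 1 to day 7 (adjusted p = 1.1e-06).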

How the data were processed

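RNA was measured in 12 whole hearts, 4 per labelled group. The authors made cDNA with random hexamers, trimmed the reads with Cutadapt and used STAR for alignment to GRCm38 (mm10). The authors deposited raw counts, whose counting tool and strand are not given in the sources used here, and TPM values from RSEM. Counts were compared with edgeR 4.0.16 in R 4.3.3 (quasi-likelihood test, TMM, filterByExpr, 1 fit of 3 groups, prior count 2 for log2 CPM). Depth ran from 23204551 to 32166517 counts, at which Dlk1, Dlk2, Dnmt3l, Dio3, Dio3os, Rtl1, Begain and Mirg had few counts. The floor of 3 counts per library covers counting error only.

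The 10 genes, lists and tests were chosen with earlier results of these data known. Named were the 10 genes, Igf2, the DEGs with the 3 largest log2 FCs per list and comparison, and, for H19, Meg3 and Mest, the 5 most similar genes with a mean of at least 1 CPM. Of those for Mest, 1 is not reported here. Copg2, Dio3os, Grb14, Cdkn1a, Cdkn1b, Gsn and Tnnt3 were added after their values were seen. Alternatives were DESeq2 1.42.0, limma 3.58.1 on log2(TPM + 1) and log2(TPM + 0.1), other scalings and filters, a replicate block, and leaving out each heart. Annotation was GENCODE M21 (GRCm38). Scripts were tested on simulated data. H19 and Cdkn1c have no entry in the promoter table. Replicates differed by more than sampling noise (chi-square per degree of freedom of at least 9.19).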

Additional observations from a re-analysis of the deposited data

Results flagged for a closer look

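Meg3 in day 1 replicate 4 stood apart from the other 3 day 1 hearts, at 13.8 CPM against 19 to 19.5 CPM. Its gap to the nearest heart was 0.928 of the range of log2 CPM, over Dixon's critical value for 4 hearts. It was 1 of 30 groups looked at, and chance flags about 1 in 20.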

How the results depend on the processing

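Mest, Meg3, Rian and Mirg were DEGs at day 7 against sham in every alternative run, with log2 FCs of 3.97 to 4.52, 2.46 to 3.34, 2.26 to 2.83 and 1.53 to 2.91. Over all alternatives, 193 counts and summaries stayed near their values and 17 did not. Of the single-gene values, 600 kept their direction and their status as a DEG or not. Another 21 passed newly as DEGs, 3 no longer did and 6 turned in direction. Passing or losing the adjusted p alone, as for Grb10 and Plagl1 above, was not counted as a change here. At day 1 against sham, 2 of the 10 genes in place of 1 were DEGs on library sizes alone. Of all 15306 genes, 1764 in place of 1192 were higher DEGs there. With 1 heart left out, 1 to 3 of the 10 genes were DEGs (3 without sham replicate 2, 2 without day 1 replicate 3 or 4). At the adjusted p alone, 7 of the 10 genes in place of 4 passed on library sizes alone and 7 with limma on log2(TPM + 1), with or without a filter at 1 TPM. Of all 15306 genes, 6289 were then higher on library sizes alone and 6187 on log2(TPM + 1) without that filter, in place of 3360. Lower were 1061 and 736, in place of 3043. At day 7 against sham, 7 of the 10 genes in place of 4 were DEGs on library sizes alone and 8 with limma on log2(TPM + 0.1). Of all genes, 3633 and 4147 were then higher DEGs and 318 and 188 lower, in place of 2346 and 900. Of the other imprinted genes, 1 in place of 6 was a DEG at day 1 with limma on log2(TPM + 1), with or without the filter. Of all genes, 957 were higher DEGs and 63 lower there without the filter, in place of 1192 and 456. From day 1 to day 7, 8 of the other imprinted genes in place of 4 were DEGs on library sizes alone and 7 on log2(TPM + 0.1). Of all genes, 1626 and 1721 were then higher DEGs and 293 and 202 lower, in place of 1308 and 411. With 1 heart left out, 2 to 7 of the other imprinted genes were DEGs (7 without day 1 replicate 2, 2 without day 1 replicate 4). Mirg lost its call between the days with limma, at 0.90 (adjusted p = 0.0339) on log2(TPM + 1) and 1.29 (adjusted p = 0.0562) on log2(TPM + 0.1). Cdkn1c between day 1 and day 7 had a log2 FC of -0.10, which turned to 0.02 on library sizes alone, 0.25 on log2(TPM + 1) with or without the filter and 0.27 on log2(TPM + 0.1), and ran from -0.28 to 0.08 with 1 heart left out. The r of Rian and Mirg turned to -0.12. On log2(TPM + 1), 0 pairs in place of 1 passed. By CPM, 12 of the 30 ranks of levels were as by TPM. Where no reason is given, the cause was not tested. The hearts' numbers do not pair them (correlations of same-numbered hearts from -0.24 to 0.23, 2 of 12 hearts closest to their own number). With the replicate number as a block, 6 in place of 4 of the 10 genes passed the adjusted p at day 1, Mirg (0.99, adjusted p = 0.0298) and Peg3 (0.37, adjusted p = 0.0464) among them, and the counts of DEGs stayed at 1, 4 and 4.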
